A study of Homo sapiens with 12 samples.

Results

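HOX genes were taken as every gene whose name in the count table is HOX, a cluster letter from A to D and a number, which gave 39 of 60670 genes. In GRCh38 coordinates of GENCODE release 29, HOXA held 11 genes at chr7:27092993-27200106, HOXB 10 at chr17:48528526-48729178, HOXC 9 at chr12:53938765-54056030 and HOXD 9 at chr2:176092891-176190907. HOXC6, taken as the marker of the set, had 53 to 114 counts in every library. A minimum count (10 in enough libraries, by edgeR's filterByExpr) left 31 of the 39 to test. The 8 others were HOXB1, HOXC5, HOXC11, HOXD1, HOXD10, HOXD11, HOXD12 and HOXD13.

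HOX genes encode homeodomain transcription factors that give cells their position along the head to tail axis of the embryo. The number of a gene follows its place in the cluster, from paralog group 1 at the anterior end to 13 at the posterior end, and genes of the same number in different clusters are paralogs. HOX proteins bind DNA together with the TALE homeodomain proteins PBX, MEIS and PKNOX. In the fetal adrenal of the mouse, Hox proteins and TALE partners act on an enhancer of Nr5a1, the gene of the master regulator of steroidogenic cells.

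H295R cells are a steroid-producing line established from a human adrenocortical carcinoma. Strand-specific libraries of total RNA were made from H295R cells that over-express DLK1 (OE), from H295R cells with DLK1 knocked down (KD) and from H295R cells labelled wild type (WT), with 4 libraries in each group, numbered as replicates 3 to 6. DLK1 encodes a membrane protein related to the Notch ligands, and the groups were set up to compare transcriptomes at different DLK1 levels. The sources used here do not say how DLK1 was raised or lowered, whether each engineered line is 1 clone or whether the replicates were separate cultures. The p-values below therefore reflect the spread among these 12 libraries alone, and that spread may be technical. In bulk RNA, fewer cells that express a gene and less of its RNA per cell cannot be told apart.

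Gene counts summed to between 9303266 and 13797397 per library, and the 39 HOX genes drew 3613 to 5540 of them. Levels below are in CPM, a gene's count over the TMM-scaled library size, as mean ± SD over 4 libraries. DLK1 had 3210 ± 148 CPM in OE, 1340 ± 113 CPM in KD and 2670 ± 132 CPM in WT, with no overlap between groups. That was a log2 fold change of 0.26 in OE against WT (adjusted p = 0.00694) and of -0.999 in KD against WT (adjusted p = 4.09e-09, edgeR). All 10 adrenocortical markers passed the filter, and their summed level was 1620 to 1730 CPM in OE, 1330 to 1560 CPM in KD and 1670 to 1760 CPM in WT. Of 8 chromaffin and neuroendocrine markers, 4 were at 0 in all 12 libraries, among them TH, DBH and SLC18A1, and the list summed to 77.2 to 86.5 CPM in OE, 89.6 to 110 CPM in KD and 78 to 83.8 CPM in WT. Single markers went different ways. HSD3B2 was higher than in WT in OE (log2 fold change 1.13) and KD (0.99), and STAR was lower in OE (-0.26) and KD (-0.61). In KD against WT CHGB was higher (0.92) while CYP17A1 (-0.77), SULT2A1 (-0.375), FDX1 (-0.34) and SYP (-0.33) were lower. Of the 10 adrenocortical markers, 3 were called higher and 1 lower in OE against WT, and 9 values were positive. In OE against KD, 6 were called higher and 0 lower, and all 10 values were positive. In KD against WT, 1 was called higher and 4 lower, and 9 values were negative. Over all tested genes, 2.13% were higher and 2.87% lower in OE against WT. These shares were 7.27% and 6.55% in OE against KD, and 3.84% and 5.22% in KD against WT. Of fibroblast markers 2 of 6 passed, of endothelial markers 1 of 6 and of immune markers 0 of 6. COL3A1, a fibroblast collagen, was lower in OE than in KD (-2.09, adjusted p = 0.00131, edgeR), with 2 to 12 counts per library in OE, 9 to 36 in KD and 8 to 18 in WT. The part of these marker levels in the HOX values was not tested. KD replicate 3 stood apart, with a chi-square per degree of freedom of 5.74 to 9.94 against the other KD libraries, where all other pairs within a group had 2.68 to 4.02. Results that use KD libraries are therefore also given without it where a call or a range changes.

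The HOX clusters also hold microRNA genes, among them MIR196A1 in HOXB, MIR196A2 in HOXC and MIR196B in HOXA. The count of MIR196A2 separated the KD libraries from all others, as described further on, so its mature product and the matching stretches in HOX mRNAs are shown here. The mature sequences are from RefSeq (GRCh38.p14) and run 5′ to 3′, with the seed (bases 2 to 8) in capitals.
miR-196a-5p: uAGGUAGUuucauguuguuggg
miR-196b-5p: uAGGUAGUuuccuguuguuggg
Both share the seed, and miR-196a-5p is encoded by MIR196A1 and MIR196A2 alike.

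The 3′ UTRs of GENCODE 29 principal transcripts were searched on the transcript strand for ACTACCT, the reverse complement of the seed, and for ACTACCTA, the same with an A opposite base 1 of the miRNA. The last letters of the shorter match also open CTACCTC, the match of the let-7 seed. The longer match stood in 6 of 39 HOX genes (15.4%), against 1.22% of 18927 protein-coding genes with a 3′ UTR. The shorter one stood in 8 of 39 HOX genes (20.5%), HOXB1 and HOXB13 being added, against 6.33% of protein-coding genes. Below, 1 stretch of 22 bases is shown for each of the 6 genes with the longer match, with the match in capitals.
HOXA5 (chr7:27141387-27141408, minus strand): atatttttattcaaACTACCTA
HOXA7 (chr7:27154430-27154451, minus strand): cctactcccctaaaACTACCTA
HOXA9 (chr7:27162692-27162713, minus strand): atgtgcagaaggttACTACCTA
HOXB6 (chr17:48595934-48595955, minus strand): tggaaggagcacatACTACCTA
HOXB7 (chr17:48607614-48607635, minus strand): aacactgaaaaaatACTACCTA
HOXC8 (chr12:54012231-54012252, plus strand): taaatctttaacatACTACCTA
HOXB8 lacks the seed match because of a G:U pair, yet pairs along the whole miRNA. Of 22 bases, 21 form Watson-Crick pairs with miR-196a-5p (capitals) and 1 forms the G:U pair (lower case).
HOXB8 (chr17:48612770-48612791, minus strand): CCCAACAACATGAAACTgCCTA
With G:U pairs counted as paired, a stretch with at least 20 of 22 bases paired was found in 222 of the 18927 genes (1.17%). Among HOX genes it was found in 1 of 39 (2.56%), HOXB8. The share of genes with all 22 bases paired was not counted. A match of letters is a description of the sequence and not a measured site.

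H295R cells carried a posterior and central HOX pattern drawn mostly from HOXA and HOXB. To compare genes, CPM was divided by the exon length of each gene (CPM per kb). In WT cells HOXA made up 51.7% ± 1.11 of the summed HOX level, HOXB 35.8% ± 1.31, HOXC 7.81% ± 0.313 and HOXD 4.66% ± 0.231. Paralog groups 9 to 13 held 53.6% ± 2.25 of it, groups 4 to 8 held 40.7% ± 2.93 and groups 1 to 3 held 5.64% ± 0.775. Set beside all genes tested, 9 HOX genes in WT lay above the median of 4.47 CPM per kb. These were HOXA5, HOXA7, HOXA9, HOXA10, HOXA11, HOXA13, HOXB2, HOXB7 and HOXB9.

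HOXA11, which in the mouse patterns the limb, kidney and uterus, was the highest HOX gene in WT at 23.1 ± 2.65 CPM per kb, or the 86.5th percentile of 15779 genes. Below it came HOXA13 (16.8 ± 1.67), HOXA5 (16.8 ± 1.43), HOXB9 (16.5 ± 1.86) and HOXB7 (16.5 ± 2.34 CPM per kb), a set whose ranges overlapped each other. HOXA7 followed at 5.36 ± 0.309 CPM per kb. In the order of WT levels, only HOXA11 over HOXA13 and HOXB7 over HOXA7 were neighbours whose libraries did not overlap.

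**Figure D1:**
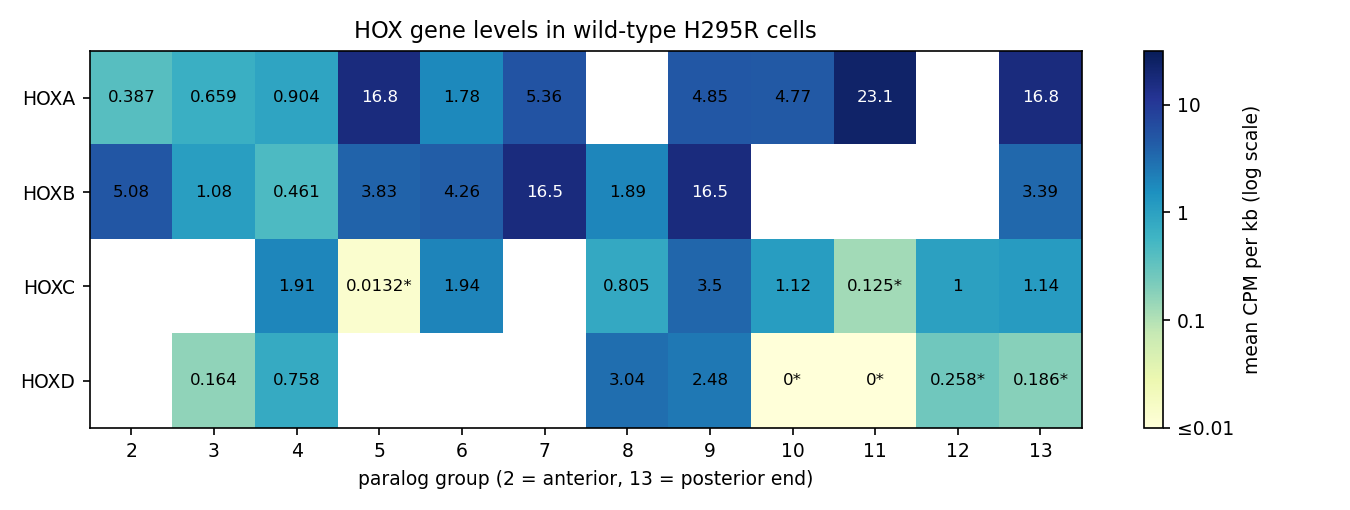
Mean level of each HOX gene in the 4 WT libraries, in CPM per kb of exon on a log colour scale, with clusters down the page and paralog groups 2 to 13 from left to right. White cells have no gene, an asterisk marks the 6 genes shown that did not pass the filter, and the darkest cells are HOXA11, HOXA13, HOXA5, HOXB7 and HOXB9.

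The relation of level to position differed in size between clusters. Across genes, the Spearman correlation of paralog number with WT level was 0.809 in HOXA (11 genes), 0.467 in HOXB (10 genes), -0.0833 in HOXC (9 genes) and 0.017 in HOXD (9 genes). All genes share the same 4 libraries, so these values describe them and carry no test. In HOXA, paralogs 2 to 4 lay between 0.387 and 0.904 CPM per kb in WT, and HOXA5, needed for lung development in the mouse, stood beside HOXA4 at 16.8 against 0.904 CPM per kb. In HOXB the step lay between HOXB8 (1.89) and HOXB7 (16.5 CPM per kb) and again between HOXB8 and HOXB9. HOXC genes were all at or under 3.5 CPM per kb, led by HOXC9 (3.5 ± 0.526), HOXC6 (1.94 ± 0.237) and HOXC4 (1.91 ± 0.157). HOXD was led by HOXD8 (3.04 ± 0.388) and HOXD9 (2.48 ± 0.606 CPM per kb), which neighbour each other in the middle of the cluster.

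Paralog groups were held up by different clusters. In WT, group 9 had the highest summed level at 27.4 ± 2.1 CPM per kb, with all 4 of its genes tested. Group 11 followed at 23.2 ± 2.64, nearly all of it HOXA11, since HOXC11 had 0 to 10 counts per library and HOXD11 had 0 counts in all 12. Group 7 had 21.8 ± 2.58, group 13 had 21.6 ± 1.52 and group 5 had 20.7 ± 1.58 CPM per kb. Group 12 was low, at 1.26 ± 0.422 CPM per kb. HOXB1, HOXD10 and HOXD11 had 0 counts in every library, and HOXD1 had 4 counts, all in KD replicate 3.

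Summed over all 39 genes, the HOX level was higher in KD than in OE or WT. It was 146, 145, 150 and 149 CPM per kb in OE replicates 3 to 6, 162, 158, 155 and 156 in KD, and 150, 150, 148 and 144 in WT. The KD libraries did not overlap the others, with or without KD replicate 3. Among clusters, HOXB had 52.3, 49.4, 57 and 50.9 CPM per kb in OE, 58.5, 59.7, 56.4 and 58.6 in KD, and 54.9, 51.2, 52.3 and 53.5 in WT. HOXC had 11.8, 10.8, 12 and 10.9 CPM per kb in OE, 10.2, 11, 11 and 9.33 in KD, and 11.3, 12.3, 11.2 and 11.5 in WT. KD was thus above every WT library in HOXB and below every WT library in HOXC, by a small margin in each. HOXB7 had 18.6 ± 2.36 CPM per kb in OE, 19.3 ± 1.24 in KD and 16.5 ± 2.34 in WT. HOXA11 had 22.9 ± 1.97 CPM per kb in OE, 25.5 ± 0.409 in KD and 23.1 ± 2.65 in WT. Neither was called in KD against WT. A sum over members has no test.

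In cells that over-express DLK1, HOXA13 was the only HOX gene called against WT, and it was lower. HOXA13 (chr7:27193503-27200106, minus strand) lies at the posterior end of its cluster and patterns the digits and the genital tract. In OE replicates 3 to 6 it had 73.5, 71.7, 74.2 and 69.6 CPM, in KD 81.2, 85.7, 86 and 77.6 CPM, and in WT 83.6, 89, 75.1 and 95.1 CPM. Every OE library lay below every KD and WT library, though the highest OE and the lowest WT value were close. Its log2 fold change against WT was -0.24 (95% interval -0.38 to -0.11, adjusted p = 0.0153, edgeR quasi-likelihood test). Thus 1 of 31 tested HOX genes was called, against 5.00% of all 15916 genes tested in OE against WT, and 1 was lower, against 2.87% of all genes. Without WT replicate 4, WT replicate 6 or OE replicate 6, the adjusted p of HOXA13 was 0.0623, 0.0965 or 0.0719, and no HOX gene was called.

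In OE against WT, 7 of 31 HOX genes had an unadjusted p under 0.05 (background 17.4%), and in 4 the libraries did not overlap (background 11.8%). The median log2 fold change of the 31 was -0.033, against 0.002 over all genes tested. Besides HOXA13, these were HOXA2 (-1.13), HOXC12 (-0.86) and HOXB9 (-0.17) on the lower side, and HOXD4, HOXD8 and HOXD9 on the higher side. HOXC12 had 1.71, 1.8, 1.58 and 2.17 CPM in OE and 3.02, 2.96, 3.34 and 4.02 CPM in WT, without overlap, and an adjusted p of 0.0907 in edgeR. It lies next to HOXC13 at the posterior end of HOXC.

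Against KD, OE cells were lower in HOXA13 and in HOXB9, a posterior gene that patterns the thoracic skeleton in the mouse. HOXB9 (chr17:48621159-48626356, minus strand) had 36.9, 35.9, 40.2 and 37.8 CPM in OE, 52.1, 49.2, 42.5 and 44.5 CPM in KD, and 44.6, 44, 35.7 and 46.5 CPM in WT. OE and KD did not overlap, and WT replicate 5 fell among the OE values. OE against KD gave a log2 fold change of -0.32 (95% interval -0.49 to -0.15, adjusted p = 0.00505, edgeR). That of HOXA13 was -0.19 (95% interval -0.32 to -0.06, adjusted p = 0.0353, edgeR). These were 2 of 31 HOX genes, against 13.8% of all genes called in OE against KD. Both were lower, against 6.55% of all genes, and 0 were higher, against 7.27%.

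HOXB9 passed under all 18 alternatives tried, with an adjusted p of 0.0018 to 0.0316 in edgeR or DESeq2, the highest without KD replicate 3. HOXA13 did not pass without KD replicate 4 or 5 or without OE replicate 3, 4 or 6, where its adjusted p was 0.0602 to 0.112. KD against WT gave -0.05 for HOXA13 (95% interval -0.18 to 0.08) and 0.15 for HOXB9 (-0.02 to 0.31) on the log2 scale, and neither passed.

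In OE against KD, 6 HOX genes had an unadjusted p under 0.05 (background 25.7%), and 4 did not overlap (background 16.2%). The median over the 31 was -0.069, against -0.002 over all genes. The posterior HOX genes had a median of -0.158 over 11 tested, the central ones -0.028 over 14 and the anterior ones -0.041 over 6. The summed level of paralog groups 9 to 13 was 76.1, 75, 72.6 and 74.4 CPM per kb in OE and 86.7, 84.1, 82.6 and 79.6 CPM per kb in KD, with no overlap. In WT it was 78.5, 83.9, 75.4 and 79.4 CPM per kb, which overlapped both. HOXA11 (-0.16), next to HOXA13, and HOXB6 (-0.36) also did not overlap, with adjusted p of 0.169 and 0.0776 in edgeR. On the higher side of OE against KD stood HOXC8 (0.83, adjusted p = 0.116) and HOXC10 (0.69, adjusted p = 0.153, edgeR), neither of which passed.

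**Figure D2:**
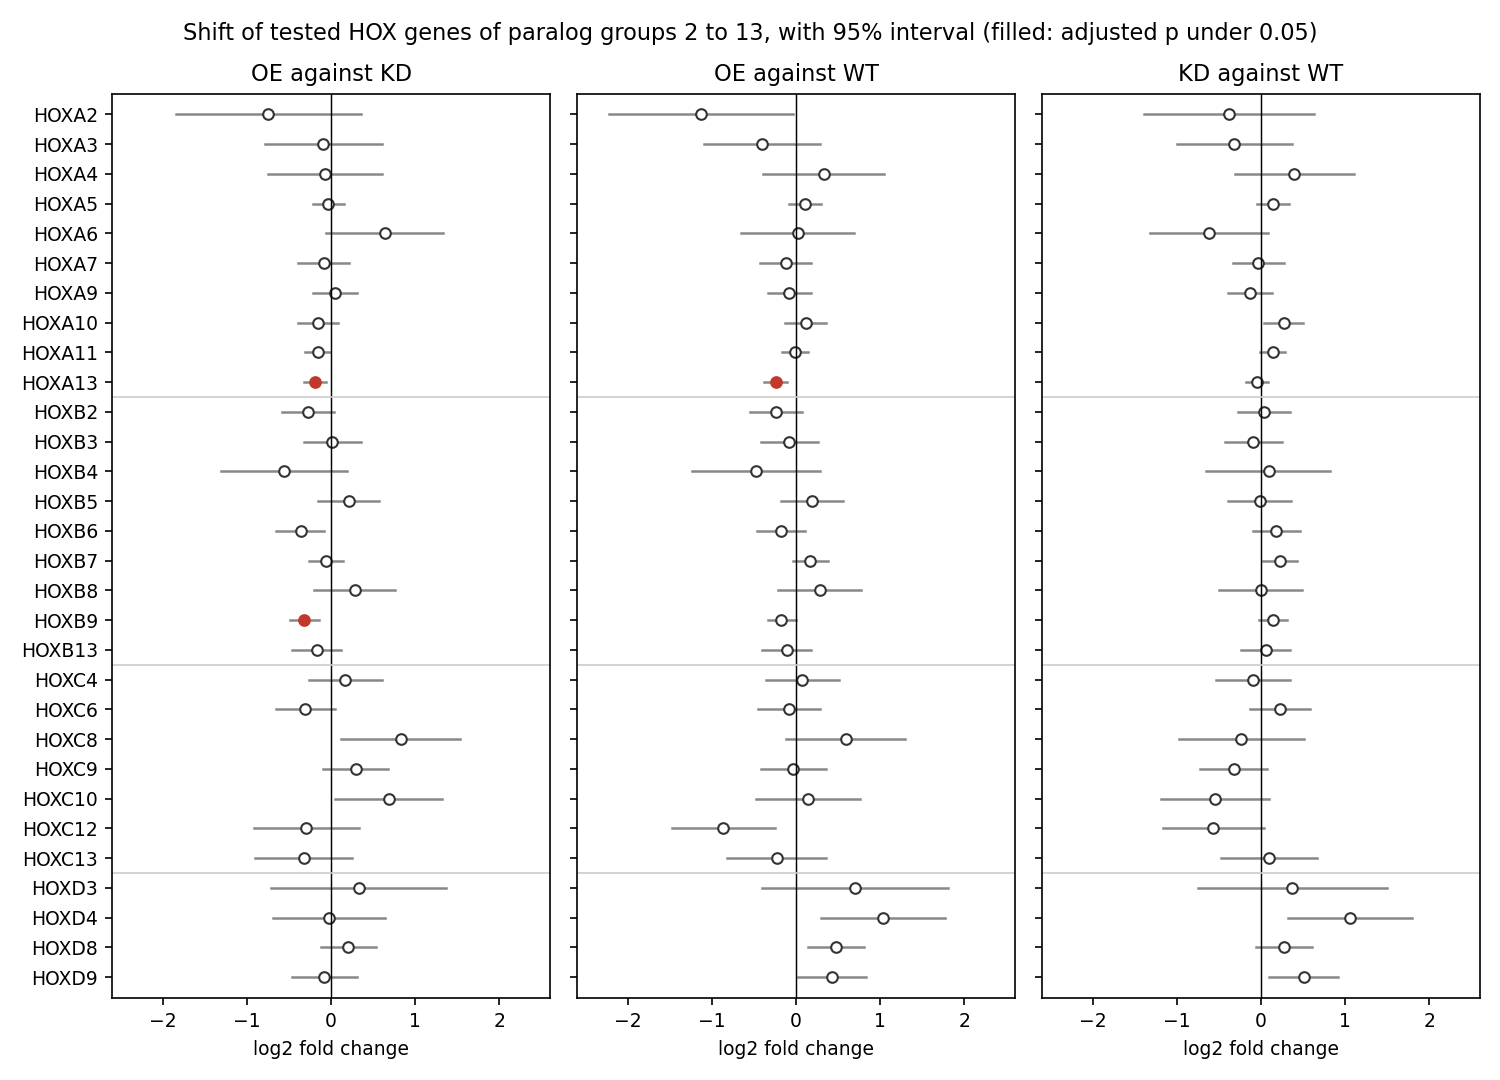
Log2 fold change of 30 of the 31 tested HOX genes, with its 95% interval (OE against KD at left, OE against WT in the middle, KD against WT at right), in cluster order from HOXA at the top to HOXD. Filled points passed an adjusted p under 0.05: HOXA13 and HOXB9 in the left panel, HOXA13 in the middle one and none in the right one.

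Genes beside the posterior end of HOXA were followed as well. HOTTIP, a long non-coding RNA transcribed away from HOXA13, known to hold MLL complexes at the 5′ HOXA genes, had 12.9, 11.7, 15.6 and 9.63 CPM in OE, 15.7, 17.7, 14.9 and 15.5 CPM in KD, and 13.2, 15.4, 14.7 and 14.6 CPM in WT. Its log2 fold change in OE against KD was -0.36 (adjusted p = 0.0625, edgeR), which did not pass, and OE replicate 5 lay among the KD values. Without OE replicate 5 HOTTIP passed (adjusted p = 0.0149, edgeR). EVX1, the homeobox gene that follows HOTTIP, was lower in OE than in KD, with a log2 fold change of -1.69 (adjusted p = 0.0171, edgeR). It is a low gene, with 0, 4, 19 and 5 counts in OE, 22, 26, 15 and 28 in KD and 9, 7, 9 and 6 in WT. In KD against WT its log2 fold change was 1.33 (adjusted p = 0.0882, edgeR) without overlap, and in OE against WT it was -0.36 (adjusted p = 0.818, edgeR) with overlap. With only the 2 groups fitted, KD against WT passed (adjusted p = 0.0401, edgeR). The call in OE against KD rested on few counts and did not pass without OE replicate 3, 4 or 6 or without KD replicate 6 (adjusted p up to 0.0817). HOXA13 shares 1.7% of its exon length with HOTTIP on the other strand, and HOXA11 shares 31.1% with HOXA11-AS.

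**Figure D3:**
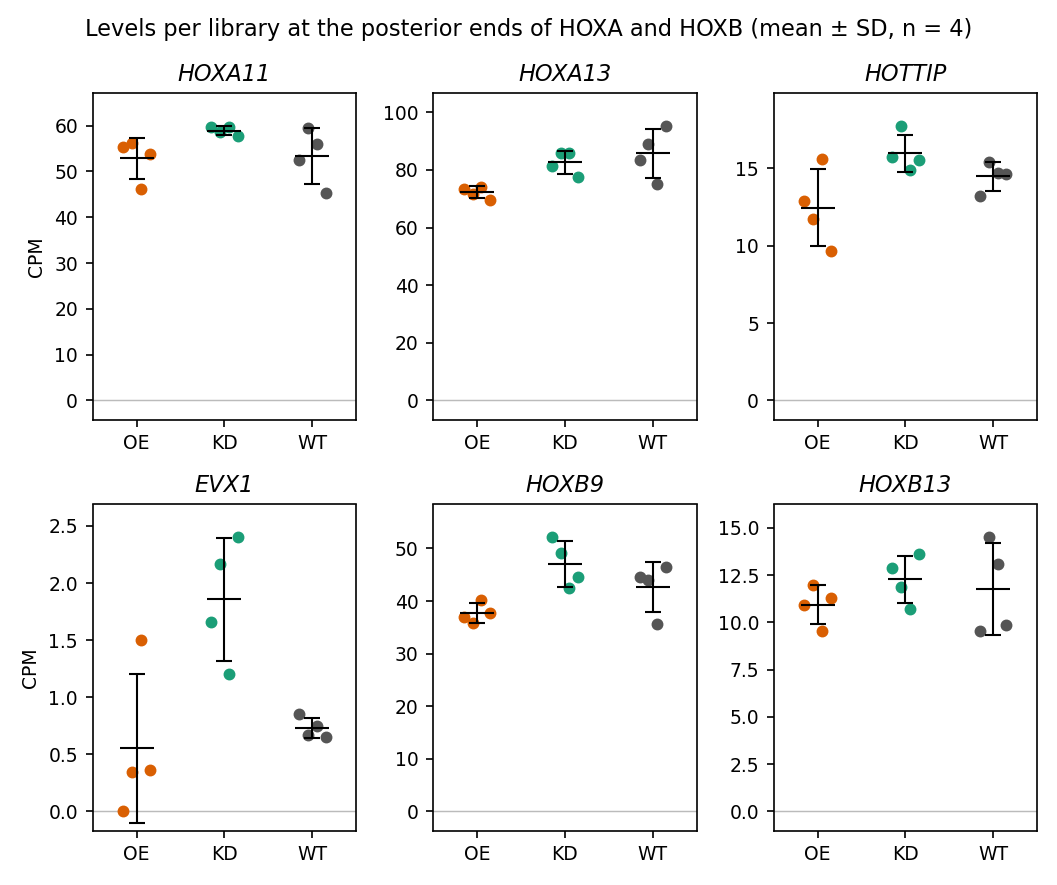
CPM per library (points) with mean ± SD (n = 4) of genes at the posterior ends of HOXA and HOXB, in OE, KD and WT from left to right. OE lies below KD without overlap in HOXA11, HOXA13 and HOXB9, while HOTTIP, EVX1 and HOXB13 overlap.

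In cells with DLK1 knocked down, no HOX gene passed the test against WT, against a background of 9.06% of genes in KD against WT. By edgeR 4 of the 31 had an unadjusted p under 0.05 (background 21.8%), by DESeq2 3, and in 0 of 31 did the libraries not overlap (background 12.8%). The 4 were HOXA10 (log2 fold change 0.27), HOXB7 (0.23), HOXD4 (1.06) and HOXD9 (0.51), all on the higher side. The median over the 31 was 0.036, against 0.005 over all genes tested, with 16 positive and 15 negative values. Without KD replicate 3, HOXD4 passed (adjusted p = 0.0253, edgeR).

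HOXC6, which in the mouse patterns the thorax and the mammary gland, had 6.38, 5.76, 7.18 and 6.66 CPM in OE, 8.62, 9.12, 9.02 and 5.4 CPM in KD, and 7.74, 6.78, 7.18 and 5.76 CPM in WT. KD replicate 6 was the lowest of the 12 libraries and the other 3 KD libraries were the highest. Its log2 fold change was -0.08 (95% interval -0.45 to 0.28) in OE against WT, -0.31 (-0.66 to 0.05) in OE against KD and 0.23 (-0.13 to 0.58) in KD against WT. None passed, with an adjusted p of 0.876 in OE against WT, 0.276 in OE against KD and 0.506 in KD against WT (edgeR). HOXC9, the highest HOXC gene per kb, had 6.47, 5.33, 6.23 and 4.92 CPM in OE, 4.54, 4.68, 5.03 and 4.45 CPM in KD, and 5, 6.4, 5.26 and 6.84 CPM in WT. Only the highest KD value of HOXC9 reached into the WT range, and its log2 fold change in KD against WT was -0.32 (95% interval -0.72 to 0.07, adjusted p = 0.356, edgeR).

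HOXA11 and HOXB7, which with HOXA13 and HOXB9 lead their clusters, were not called in any comparison. HOXA11 had 55.3, 56.1, 46.2 and 53.7 CPM in OE, 59.6, 58.5, 59.7 and 57.7 CPM in KD, and 52.5, 59.5, 56 and 45.2 CPM in WT. HOXB7 had 29.4, 24.9, 33 and 26.2 CPM in OE, 28.9, 28.1, 32.3 and 28.8 CPM in KD, and 28.5, 23.1, 27.8 and 21.2 CPM in WT. KD libraries were the least spread in HOXA11, and WT overlapped KD in both genes. The log2 fold changes in KD against WT were 0.14 (95% interval -0.01 to 0.29) for HOXA11 and 0.23 (0.02 to 0.43) for HOXB7, with adjusted p of 0.278 and 0.173 in edgeR.

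HOXD was the only cluster whose summed level was above every WT library in both engineered lines. Over its 9 genes, none left out, the sum was 8.46, 9.23, 11 and 10.2 CPM per kb in OE, 9.11, 10.7, 8.43 and 9.65 in KD, and 6.68, 7.45, 6.65 and 6.77 in WT. Neither engineered line overlapped WT, and both are set against the same 4 WT libraries. Its share of the summed HOX level was 6.57% ± 0.654 in OE, 6.01% ± 0.602 in KD and 4.66% ± 0.231 in WT.

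HOXD4 (chr2:176151222-176153226, plus strand), which in the mouse patterns the neck vertebrae, had 2.38, 2.66, 1.97 and 2.24 CPM in OE, 1.36, 2.51, 2.31 and 3.25 CPM in KD, and 0.85, 0.859, 1.75 and 0.977 CPM in WT. OE did not overlap WT, and KD replicate 3 lay below WT replicate 5. Its log2 fold change was 1.03 in OE against WT (95% interval 0.30 to 1.77, adjusted p = 0.0929, edgeR) and 1.06 in KD against WT (0.32 to 1.79, adjusted p = 0.0577, edgeR). In KD against WT it passed without WT replicate 5, the high WT library (adjusted p = 0.0285), without KD replicate 3 (0.0253) and with library sizes alone (0.0461, all edgeR). It shares 80.5% of its exon length with AC009336.2 on the same strand, and HOXD3 shares 62.2%, so the counts of both are less certain.

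HOXD8 had 8.95, 9.62, 15.1 and 10.6 CPM in OE, 8.01, 11.1, 8.3 and 11.2 CPM in KD, and 7.55, 8.88, 6.76 and 8.8 CPM in WT. All OE values were above all WT values, by a small margin, while KD and WT overlapped. OE against WT gave a log2 fold change of 0.48 (95% interval 0.14 to 0.81, adjusted p = 0.0852, edgeR). HOXD8 passed when OE and WT alone were fitted (adjusted p = 0.0491, edgeR). HOXD9 had 5.43, 6.1, 6.15 and 7.17 CPM in OE, 8.17, 7.11, 6.15 and 4.88 CPM in KD, and 5.1, 6.01, 3.84 and 3.58 CPM in WT. Both engineered lines overlapped WT in HOXD9, and its log2 fold changes were 0.43 in OE and 0.51 in KD, with adjusted p of 0.262 and 0.112 in edgeR. No exon of HOXD8 or HOXD9 is shared with another gene.

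The 4 tested HOXD genes all had positive log2 fold changes, with a median of 0.592 in OE against WT and 0.44 in KD against WT. All 4 were also positive with library sizes alone and in DESeq2, and against the same WT libraries in each case. With no filter, which added the low genes HOXD1, HOXD12 and HOXD13, 4 were positive and 2 negative in OE against WT. In KD against WT, 6 were then positive and 1 negative. None of the 4 tested was called, and HOXD3 and HOXD4 were low in WT, so these counts are a description only. In OE against KD, 2 were positive and 2 negative, with values of -0.08 to 0.33. HAGLR is among the antisense RNAs that together overlap 14.6% of the exon length of HOXD3 and 58.1% of that of HOXD1. It had log2 fold changes of 0.43 in OE and 0.58 in KD against WT (adjusted p of 0.554 in OE and 0.313 in KD, edgeR). HAGLROS had 0.73 in OE (adjusted p = 0.394) and 0.71 in KD (adjusted p = 0.352, edgeR).

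**Figure D4:**
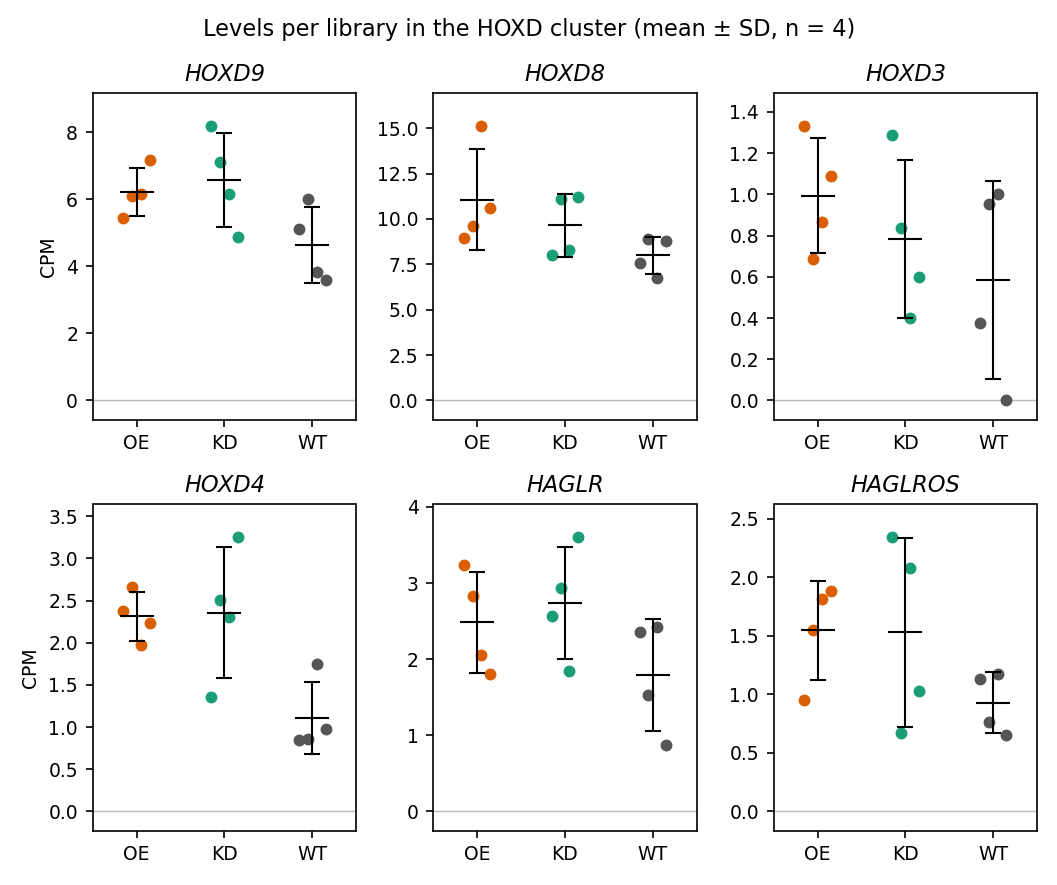
CPM per library (points) with mean ± SD (n = 4) of the 4 tested HOXD genes and of the HOXD long non-coding RNAs HAGLR and HAGLROS, in OE, KD and WT from left to right. WT lies below OE without overlap in HOXD4 and HOXD8, and the other panels overlap.

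MIR196A2 had counts in every KD library and in no other. This microRNA gene lies at chr12:53991738-53991847 on the plus strand, in an intron of HOXC6 and between HOXC10 and HOXC9. Its counts were 0 in all 4 OE libraries, 2167, 1616, 1795 and 1724 in KD replicates 3 to 6, and 0 in all 4 WT libraries. That was 147 ± 12.1 CPM in KD (135 to 164). With a floor of 3 counts over a group of 4 libraries, KD was at least 2400-fold higher than OE and at least 2080-fold higher than WT. It passed the filter through KD alone. Of all genes, 6 had counts in every KD library and 0 in all OE and WT libraries, and the highest of the 5 others had 21 counts summed over KD.

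None of the HOXC genes around MIR196A2 was called. In KD against WT the log2 fold change was -0.54 for HOXC10, 0.23 for HOXC6, -0.32 for HOXC9 and -0.24 for HOXC8. The deposited counts are of reads assigned to the gene and do not measure the mature miRNA. Where the MIR196A2 reads in KD came from was not tested, and how DLK1 was lowered is not stated. MIR196A1, with the same mature product, had 126 counts in all, and its log2 fold change in KD against WT was -0.37 (95% interval -1.33 to 0.58). MIR196B and MIR10A had 0 counts, MIR10B had 7 and MIR615 had 8 over all 12 libraries. MIR196B lies in an exon of HOXA9 and MIR10A in an exon of HOXB4, each on the same strand. How shared reads were counted is not stated, so these 0 counts do not show that MIR196B and MIR10A were silent.

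**Figure D5:**
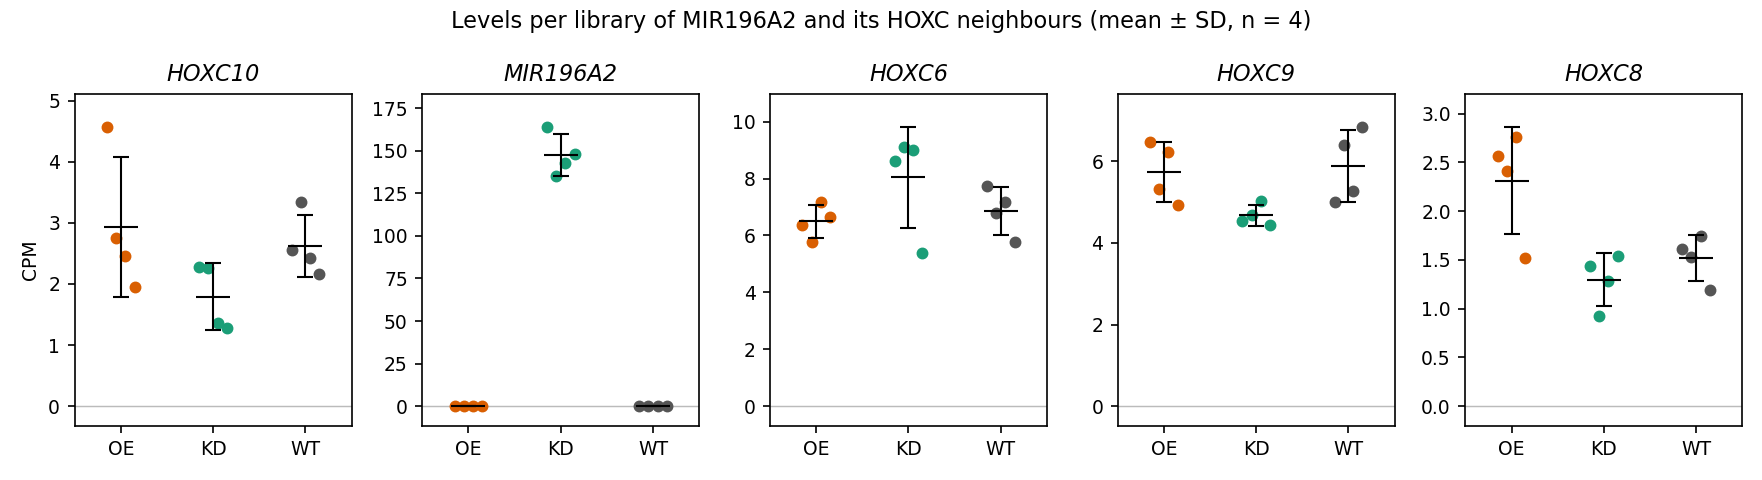
CPM per library (points) with mean ± SD (n = 4) of MIR196A2 and 4 HOXC genes in their order along the chromosome, in OE, KD and WT from left to right. MIR196A2 is at 135 to 164 CPM in KD and at 0 in OE and WT, while the 4 HOXC genes overlap between KD and WT.

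None of the HOX genes whose miR-196 matches are shown above passed in KD against WT. Their log2 fold changes were 0.14 for HOXA5, -0.03 for HOXA7, -0.13 for HOXA9, 0.18 for HOXB6, 0.23 for HOXB7 and -0.24 for HOXC8. That of HOXB8, with pairing along the whole miRNA, was 0.00 (95% interval -0.50 to 0.49). Of all 169 tested genes with the longer match, 19 (11.2%) were lower and 5 higher in KD against WT, where 5.22% of all tested genes were lower. Of 11915 tested genes with neither match, 5.87% were lower. In OE against WT 4.14% of those with the longer match and 3.38% of those with neither were lower. In OE against KD, 21 of the 169 were higher and 6 lower, where 7.27% of all tested genes were higher and 6.55% lower. The shorter match stood in 932 tested genes, those 169 included, of which 9.44% were lower in KD against WT. In OE against KD, 119 of the 932 were higher and 46 lower. The median log2 fold change there was 0.041 with the shorter match and 0.039 with the longer one. Of the 11915 with neither match, 970 were higher and 959 lower in OE against KD, and this comparison uses the same KD libraries. The 3′ UTRs with a match were also longer, at a median of 3115 bases with the longer match and 3160 with the shorter one. Over all 12847 genes measured the median was 1118 bases, and the part of length in these shares was not tested.

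Of the TALE partners of HOX proteins, MEIS1, MEIS2, MEIS3, PBX2, PBX3, PBX4 and PKNOX1 were not called in any comparison, with log2 fold changes between -0.18 and 0.48. In KD against WT the values were 0.10 for MEIS2, -0.18 for PBX3, -0.15 for MEIS1 and 0.04 for PKNOX1. NR5A1 had 554 ± 25.2 CPM in OE, 532 ± 49.4 in KD and 550 ± 23.8 CPM in WT, and did not pass in any comparison.

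Polycomb and Trithorax complexes keep HOX genes silent or active. Of 19 Polycomb genes, 0 rose and 0 fell in OE against WT, 1 rose and 2 fell in OE against KD, and 3 rose and 0 fell in KD against WT. Of all tested genes, 2.13% rose and 2.87% fell in OE against WT, 7.27% rose and 6.55% fell in OE against KD, and 3.84% rose and 5.22% fell in KD against WT. The 3 that rose in KD were CBX2 (log2 fold change 0.36), PHC2 (0.34) and JARID2 (0.28), a chromodomain protein, a Polyhomeotic protein and a PRC2 partner. CBX2 had 51.3, 50.1, 54 and 57.3 CPM in OE, 80.3, 69.8, 71.3 and 70 CPM in KD, and 58.7, 62.6, 55.6 and 49.4 CPM in WT. All KD libraries were above all others in CBX2. In OE against KD, CBX2 (-0.45) and PHC2 (-0.295) fell and PHC3 (0.36) rose. The medians of the list were 0.04 in OE against WT, 0.002 in OE against KD and 0.062 in KD against WT.

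Of 15 Trithorax and MLL complex genes, 0 rose and 2 fell in OE against WT, 4 rose and 3 fell in OE against KD, and 0 rose and 3 fell in KD against WT. The shares that fell among all tested genes were 2.87% in OE against WT, 6.55% in OE against KD and 5.22% in KD against WT, and 7.27% rose in OE against KD. In OE against WT the 2 were KMT2B (-0.23) and RBBP5 (-0.27), a histone methyltransferase and a core subunit of its complex. In KD against WT the 3 were KMT2A (-0.38), AFF4 (-0.27) and KMT2C (-0.25), of which KMT2A encodes MLL, the methyltransferase that keeps HOX genes active. KMT2A had 60.9 ± 4.66 CPM in OE, 49.2 ± 6.21 in KD and 64.2 ± 7.12 CPM in WT. KD and WT overlapped in KMT2A only through KD replicate 3 (56.3 CPM), which lay above WT replicate 4 (55.8 CPM). In OE against KD the 4 that rose were MLLT3 (0.40), KMT2C (0.34), KMT2A (0.31) and AFF4 (0.28). The 3 that fell are not named here, and the lowest value of the list was -0.24. Of the 15 values in that comparison, 6 were positive and 9 negative. KMT2C in KD against WT did not pass in 11 of 18 alternatives. KMT2B in OE against WT did not pass without WT replicate 3, 5 or 6 or OE replicate 4 or 6, nor RBBP5 without WT replicate 4 or OE replicate 5. The list had a median of -0.087 in OE against WT, of -0.085 in OE against KD and of -0.034 in KD against WT.

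Retinoic acid, made from retinol and known to switch on anterior HOX genes, was covered by 9 tested genes of synthesis, breakdown and reception. Of these 0 were called in OE against WT, 2 rose in OE against KD and 1 fell in KD against WT, where 5.00% of all tested genes were called, 7.27% rose and 5.22% fell in these comparisons. The 2 were CYP26B1 (0.39), which degrades retinoic acid, and STRA6 (0.89), a retinol carrier of the membrane. The 1 was ALDH1A1 (-0.20), which makes it. STRA6 did not pass without KD replicate 4 or 6 or OE replicate 3 or 6. The list had a median of -0.04 in OE against WT, of 0.084 in OE against KD and of -0.054 in KD against WT. No gene of the CDX and ParaHox list passed the filter. Of these, the CDX genes regulate posterior HOX genes in the embryo.

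Transcripts and genes around the clusters were counted in the same way. Over all tested genes, 5.00% were called in OE against WT, 13.8% in OE against KD and 9.06% in KD against WT. Of 11 tested HOX cluster long non-coding RNAs, 0 were called in each of the 3 comparisons, with medians of 0.094 in OE against WT, 0.048 in OE against KD and 0.009 in KD against WT. Besides HOTTIP, HAGLR and HAGLROS these were HOTAIRM1, HOXA-AS2, HOXA-AS3, HOXA10-AS, HOXA11-AS, HOXB-AS1, HOXB-AS3 and HOXB-AS4. Of 26 tested flanking genes, 0 were called in OE against WT, 3 in OE against KD and 4 in KD against WT. The flanking lists reach past the nearest genes, and distances to the clusters are not given here. In OE against KD, HIBADH on the HOXA flank was higher (0.28), and EVX1 on the HOXA flank (-1.69) and CBX1 on the HOXB flank (-0.22) were lower. In KD against WT, HNRNPA1 on the HOXC flank was higher (0.12), and HIBADH (-0.22), COPZ1 on the HOXC flank (-0.15) and ATF2 on the HOXD flank (-0.24) were lower. COPZ1 lost its call under 9 of 18 alternatives, among them 3 fits that each left out a WT library (replicate 3, 5 or 6) and 2 that left out KD replicate 4 or KD replicate 6. ATF2 lost its call without KD replicate 6.

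Most HOX genes without values above were low or overlapped between groups. HOXA2, HOXA3, HOXA4 and HOXA6 had 2 to 43 counts per library. HOXB4, HOXB8, HOXC8, HOXC10, HOXC13 and HOXD3 had 0 to 72. HOXA5, HOXA7, HOXA9, HOXA10, HOXB2, HOXB3, HOXB5, HOXB6, HOXB13 and HOXC4 had 37 to 477 counts per library, and their log2 fold changes lay between -0.36 and 0.27 in the 3 comparisons. HOXA7 shares 62.5% of its exon length with HOXA-AS3 on the other strand. The strand setting of the counting is not known, so reads of such pairs cannot be told apart.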

How the data were processed

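RNA was sequenced from 12 libraries of H295R cells, 4 each of OE, KD and WT. The authors deposited raw gene counts, and the submitters' processing notes name the build GRCh38 and the tools HISAT2 1.03, featureCounts, Subread, DESeq2 and FastQC, without roles or order. Annotation release, strand setting and the treatment of multi-mapping reads are not stated. Of 60671 genes listed, 1 (ANK2) had blank counts and was left out, as were 3 lines that name no gene. Groups came from the sample labels.

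Genes passing filterByExpr (minimum count 10, minimum total 15) were scaled by TMM and tested in 1 robust quasi-likelihood fit of all 12 libraries (edgeR 4.0.16, limma 3.58.1, R 4.3.3), with Benjamini-Hochberg adjustment over 15916 genes. A gene was called at an adjusted p under 0.05, and intervals are 95% intervals of the log2 fold change. CPM per kb uses the union of exons in GENCODE 29. Totals of 9303266 to 13797397 counts set the precision. Groups overlap where the ranges of their libraries do.

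Library values are given for each HOX gene called in any comparison and for the 2 highest per kb in WT in each cluster, and list members are named if among the 3 called with the smallest p, beside a called HOX gene, or known partners of HOX proteins. HOXD4, HOXC12 and the other HOX genes given by library were added after their values were seen. The HOX genes and lists were chosen with earlier results of these data known. The code was tested on simulated data. Alternatives were DESeq2 1.42.0, library sizes alone, other filters, fits of 2 groups, a replicate block, each library left out, and other gene lengths. Same-numbered libraries did not deviate together (correlations -0.033 to 0.071 by comparison and number), so the main result has no block. Results for some genes are not reported here.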

Additional observations from a re-analysis of the deposited data

Results flagged for a closer look

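Of 93 sets of 4 libraries checked, 1 gene in 1 group each, 2 held a library far from the others, where chance gives about 1 in 20. In KD, HOXC6 had 5.4 CPM in replicate 6, against 8.62 to 9.12 CPM in the other KD libraries. In WT, HOXD4 had 1.75 CPM in replicate 5, against 0.85 to 0.977 CPM in the other WT libraries, and the log2 fold change of HOXD4 in KD against WT without that library was 1.385 (adjusted p = 0.0285, edgeR).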

How the results depend on the processing

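With each library left out in turn, 0 to 1 HOX genes were called in OE against WT, 1 to 2 in OE against KD and 0 to 1 in KD against WT. In OE against WT the count was 2 when the 2 groups alone were fitted, with HOXD8 beside HOXA13, and in KD against WT it was 1 with library sizes alone, HOXD4. The replicate block gave 1 HOX gene called in OE against WT, 2 in OE against KD and 0 in KD against WT, and changed no call of a HOX gene. Over all genes, OE against WT gave 796 calls, and 1236 when only its 2 groups were fitted. HOXB6 was called in OE against KD without KD replicate 5 (adjusted p = 0.0441, edgeR). Library sizes alone moved the median of all genes to 0.024 in OE against WT and 0.036 in KD against WT. Of the filter settings, 36 HOX genes had any count and 29 passed a CPM of at least 1 in 4 libraries.

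In WT, the share of HOXA in the summed HOX level was 57.1% without division by length, 50.6% with the longest transcript and 50.5% with exon length not shared with another gene, the last chosen after seeing the data. That of HOXB was 31.7% without division by length. That of HOXC was 7.32% without division by length and 8.33% with the longest transcript, and that of HOXD was 3.86%, 4.9% and, with unshared length, 6.61%.

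In HOXB, 6 of 9 tested genes were positive in KD against WT, 8 without KD replicate 3 and 4 without KD replicate 4, so uncalled HOX values near 0, such as that of HOXB8, have no stable sign. Of EVX1, NR5A1, PKNOX1 and the other genes followed one by one, 9 results of left-out fits turned a direction, none of them called. EVX1 in OE against WT ranged from -1.528 to 0.005. NR5A1 ranged from -0.019 to 0.031 in OE against WT and from -0.105 to 0.003 in KD against WT. PKNOX1 ranged from -0.008 to 0.094 in OE against WT, from -0.032 to 0.054 in OE against KD and from -0.018 to 0.086 in KD against WT. The cause of these changes was not tested. Among tested HOX genes, low counts limit HOXA2 (97 in all) and HOXD3 (113) most, then HOXB4 (224), HOXC8 (240), HOXA4 (269) and HOXD4 (275). HOXD4 had 9, 9, 21 and 9 counts in WT replicates 3 to 6. EVX1, with 150 counts in all, is limited in the same way.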
